A study of Mus musculus with 4 samples.

Results

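The natural killer (NK) cells of mouse blood described here were 374 of the 14588 cells in the deposited table of unique molecular identifiers (UMIs, one for each captured transcript molecule). A cell was counted as an NK cell when it held 3 or more UMIs of Klrb1c, Klre1 and Ncr1 together, at most 1 UMI of the T cell genes Cd3d, Cd3e and Cd3g, at most 2 UMIs of the B cell gene Cd79a and at most 4 UMIs of the myeloid gene Lyz2. The members were thus chosen by the measured UMIs of these 8 genes, so their levels are descriptions and were left out of every count of genes below. The young samples held 140 and 149 NK cells, old sample 1 held 59 and old sample 2 held 26.

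The study compared circulating cells of young mice, aged 4 months, with those of old mice, aged 24 months. All were female C57BL/6 mice supplied by the National Institute on Aging, fed freely in standard housing, with no treatment named. There were 2 samples of each age, and each sample was blood pooled from 2 mice, so that 4 mice stood behind each age and no value belongs to a single animal. Blood was drawn from the heart, passed over a density gradient, freed of red cells by lysis and captured on the droplet platform of 10x Genomics, which reads the 3′ ends of transcripts. A p-value here takes the pools as replicates and does not measure the spread between mice. In edgeR's test the spread is estimated largely from all genes together. A small p therefore does not show that the 2 pools of an age had like levels of that gene.

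NK cells are innate lymphocytes that kill infected or transformed cells without a rearranged antigen receptor, by releasing perforin and granzymes from preformed granules. Whether a cell kills is set by the balance of activating receptors, which signal through adaptors such as Tyrobp, Hcst and Fcer1g, and inhibitory receptors, many of which bind MHC class I. In the mouse the main MHC class I receptors are the Ly49 lectins, encoded by the Klra genes and switched on in some NK cells but not in others, and maturing NK cells exchange Cd27 for the integrin Itgam and gain Klrg1.

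The Ly49 genes lie side by side on chromosome 6, and Klra3, which encodes Ly49C, gave the clearest age difference in these cells, whereas Klra9, which encodes Ly49I, did not pass the test. Their promoter windows, from 250 bases before to 50 bases after the annotated start, are shown because the genes are close relatives with unlike results. Both are RefSeq windows on the minus strand of GRCm38.p6, the Klra3 window at chr6:130337577-130337876 and the Klra9 window at chr6:130193063-130193362. Capitals mark the letters TATAAA, those of the TATA box motif, wherever they occurred in a window. Whether they act as a TATA box was not tested, and their distance from the start was not considered.
Klra3: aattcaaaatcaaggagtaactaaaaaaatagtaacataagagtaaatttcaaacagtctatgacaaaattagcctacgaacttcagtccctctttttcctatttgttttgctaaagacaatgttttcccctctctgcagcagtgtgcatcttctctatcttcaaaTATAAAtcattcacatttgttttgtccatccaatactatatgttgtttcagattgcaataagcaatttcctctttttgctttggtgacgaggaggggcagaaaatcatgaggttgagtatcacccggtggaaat
Klra9: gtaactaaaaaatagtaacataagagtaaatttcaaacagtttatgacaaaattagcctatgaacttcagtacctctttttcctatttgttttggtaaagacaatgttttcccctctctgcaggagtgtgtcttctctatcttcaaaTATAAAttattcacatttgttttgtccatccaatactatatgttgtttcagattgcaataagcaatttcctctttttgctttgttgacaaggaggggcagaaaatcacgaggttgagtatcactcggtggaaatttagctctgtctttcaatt
Aligned end to end, 271 of the 300 bases of the Klra9 window matched the Klra3 window (90.3%), and the windows of the other 9 Klra genes in the RefSeq table matched it at 58.0% to 68.7% of bases. Each window was placed at its own annotated start, so windows offset from one another match less end to end. Shared stretches at shifted positions were not searched for, and a low match does not mean that none exist. The Klra9 window lay within the annotated gene, which reaches base 130194374. The letters TATAAA, searched on both strands, occurred in 13.6% of all 32851 mouse promoter windows of this length. Neither window held the RUNX core TGTGGT, present in 16.8% of all windows on either strand, or the T-box core AGGTGT, present in 13.7%. No match says only that those letters were absent from these windows. The mature transcripts of these genes are also similar, and how the counting divided reads between near-identical copies was not given in the sources used here, so the level of any one Klra gene carries that uncertainty.

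NK cells made up a smaller share of cells in both old samples than in both young ones. They were 3.59% of cells in young sample 1 (95% exact binomial interval 3.03% to 4.22%) and 3.86% in young sample 2 (3.28% to 4.52%). They were 1.27% in old sample 1 (0.969% to 1.64%) and 1.19% in old sample 2 (0.778% to 1.74%). The mean share was 3.73% ± 0.195 in young and 1.23% ± 0.0581 in old samples (SD, n = 2 each), a ratio of 3.03. The exact two-sided permutation test gave p = 0.333, the smallest value that 2 samples against 2 allow. Intervals here and below cover counting error only.

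The lower share was found at equal depth too, since after each cell was thinned to 1000 UMIs the rule kept 2.51% ± 0.289 of young and 0.789% ± 0.0488 of old cells (SD, n = 2). The denominator mattered. B cells took 44.4% of cells in both young samples and 68.1% and 63.7% in the old ones, and among cells with at most 2 Cd79a UMIs the NK share was 8.17% and 8.66% in young and 5.39% and 4.39% in old samples, a ratio of 1.72. The share of T cells without NK receptor UMIs was 3.49 times as high in young as in old samples and that of T cells with NK receptor UMIs 2.41 times as high. Monocytes ran the other way, at 0.360 times their old share in young samples. From shares alone, fewer NK cells and more cells of other types cannot be told apart.

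**Figure D1:**
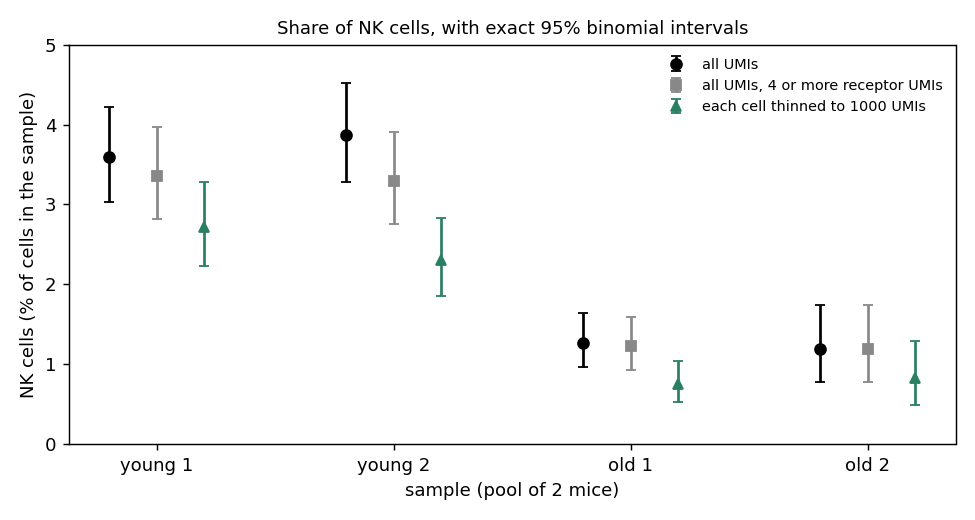
Share of NK cells among all cells of each sample (y axis, percent) under the rule, under a stricter receptor limit and with every cell thinned to 1000 UMIs, bars giving 95% exact binomial intervals. Under all 3 settings both old samples lie below both young ones, at 1.27% and 1.19% against 3.59% and 3.86% under the rule.

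The receptor limit cut through few cells. Of 532 cells with 3 or more receptor UMIs, 141 were over the limit for Cd3 transcripts, 26 over that for Cd79a and 6 over that for Lyz2, some cells being over more than one, and 374 were kept. Exactly 3 receptor UMIs were held by 33 of the NK cells (9, 22, 2 and 0 in young samples 1 and 2 and old samples 1 and 2), and 100% of them had Gzma and 97.0% Nkg7. Just outside the limit, 29 cells with 2 receptor UMIs and no other reason for removal held Gzma in 75.9% and Nkg7 in 100%. No cell barcode of an NK cell occurred in another library, although 108 barcodes of other cells did.

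The label fitted the markers that the rule did not use. Gzma, the tryptase-like granzyme of NK cells, was found in 96.2% to 98.0% of NK cells thinned to 1000 UMIs, against 0.503% to 4.03% of B cells. Nkg7, a granule membrane protein of killer lymphocytes, was found in 92.3% to 100% of thinned NK cells and in 0.718% to 4.15% of B cells. Median depth before thinning was 2065 to 2625.5 UMIs in NK cells and 2065.5 to 3105 in B cells. The 6 T cell markers outside the rule summed to 41.9 to 80.0 CPM in NK cells (UMIs per 1000000 UMIs of the tested genes, after TMM scaling of the libraries), against 1253 to 1463 in T cells, and Cd8a was at 0 in every NK sample. The 6 genes listed for type 1 innate lymphoid cells, which share receptors with NK cells, summed to 39.4 to 64.0 CPM, against 449 to 597 in T cells and 390 to 769 in monocytes. Neither group is a reference for innate lymphoid cells, so this sum cannot show whether some were among the NK cells. The 11 listed NK markers outside the rule summed to 29188 to 39074 CPM in NK cells. Their sum was 6469 to 8713 CPM in T cells with NK receptor UMIs and 9606 to 10508 CPM in monocytes. At least 1 of them was found in 94.1% to 98.9% of those T cells thinned to 1000 UMIs. Prf1, one of the 11, was found in 0% to 15.3% of thinned NK cells.

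RNA of platelets was higher in the NK droplets of both old samples than in those of both young ones. RNA of red cells overlapped between ages. A UMI of Ppbp, Pf4 or Gng11, all platelet genes, was held by 0.714% and 1.34% of young and 55.9% and 46.2% of old NK cells, and by 0.115% and 1.58% of young and 52.4% and 42.1% of old B cells. All 5 listed platelet genes together stood at 6.13 and 9.09 CPM in young NK cells, with 3 of the 5 at 0 in each young sample, and at 789 and 256 CPM in old ones. Haemoglobin transcripts took 1.25% and 5.39% of NK UMIs in young samples and 4.44% and 15.5% in old ones. In old sample 2, 3 of the 26 NK cells held 200 or more haemoglobin UMIs. The median NK cell there held 32.5, against 11 and 68 in the young samples and 59 in old sample 1. Lyz2, a monocyte gene, was detected at 79.7 and 173 CPM in young and 349 and 272 CPM in old NK cells, and at 54.4, 163, 287 and 190.1 CPM in B cells of the same samples in the same order. The 7 monocyte markers outside the rule overlapped between ages, at a summed 340.2 and 346 CPM in young and 196 and 384 CPM in old NK cells, with Cd14 at 0 in every sample. The 7 B cell markers outside the rule summed to 1152 to 1991 CPM, against 34734 to 51192 CPM in B cells. The part of this RNA in the age differences below was not tested, except where values without such cells are given.

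**Figure D2:**
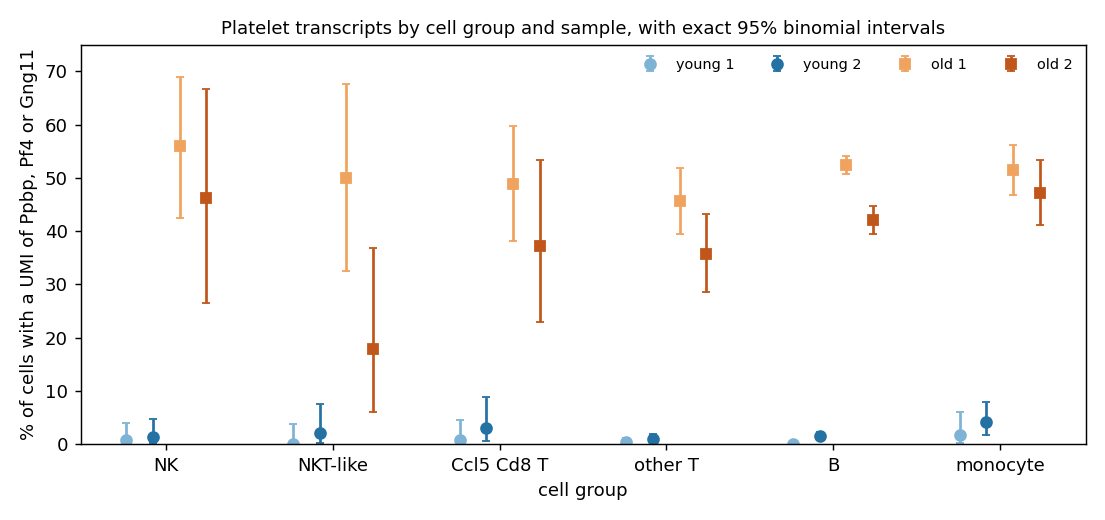
Percent of cells with at least 1 UMI of Ppbp, Pf4 or Gng11 (y axis) in each sample of 6 cell groups, bars giving 95% exact binomial intervals. Every group lies below 5% in the young samples and between 17.9% and 55.9% in the old ones, NK cells included.

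In CPM, old NK cells held more Klra3, S100a6, Gzmb and Plac8 than young ones. Across the 2601 genes with a UMI in at least 10% of the NK cells of each age, edgeR's quasi-likelihood test on summed UMIs called 5 genes higher in old samples at an adjusted p under 0.05, 0.193% of the 2596 genes outside the rule. It called 0 lower, while at an unadjusted p under 0.05 there were 83 higher and 79 lower. DESeq2 called 2 higher, Klra3 and S100a6, and 0 lower. The median log2 fold change over all genes was 0.0068.

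Klra3 stood at 156 and 176 CPM in young and at 538 and 448 CPM in old NK cells. Both old samples were therefore far above both young ones. The log2 fold change was 1.60 (SE 0.22, adjusted p = 0.000153, edgeR). The share of NK cells with Klra3 was 10.7% and 10.1% in young samples and 33.9% and 23.1% in old ones once thinned to 1000 UMIs, so that more cells held a UMI of the gene, and at most 0.0718% among B cells so thinned. In no alternative did its log2 fold change drop below 1.35, but the call was lost without young sample 2 (adjusted p = 0.252), where the lone young sample was assumed to vary like the old ones, at equal depth of 1000 UMIs per cell (adjusted p = 0.0883) and with no filter on low genes (adjusted p = 0.883).

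No other Ly49 gene passed the test. Of 6 Klra genes tested, 2 had positive and 4 negative log2 fold changes, with Klra3 as the 1 call. Klra4 (Ly49D, an activating receptor) stood at 1428 and 1228 CPM in young and 852 and 1232 CPM in old cells. Klra8 (Ly49H, an activating receptor for a cytomegalovirus protein) stood at 757, 643, 594 and 752 CPM in the same order, and Klra9 at 769, 437, 566 and 640.2 CPM. The ages overlapped for these 3 genes and for Klra7 and Klra1. Klra2, Klra5, Klra6 and Klra17 were too low to test. A thinned NK cell held UMIs of 1.99 and 1.82 different Ly49 genes on average in young and 1.81 and 1.62 in old samples, and at full depth 92.9% to 100% of cells held at least 1.

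S100a6, a calcium-binding protein, stood at 1171 and 1009.5 CPM in young and 2054 and 1937 CPM in old NK cells, with no overlap (log2 fold change 0.88, SE 0.15, adjusted p = 0.00401, edgeR). The gene was higher in old cells of other types as well, at 559 and 462 CPM in young and 3454 and 1282 CPM in old B cells. Gzmb, the granzyme that triggers apoptosis through caspases, stood at 1201 and 937 CPM in young and 2312 and 1504 CPM in old NK cells (log2 fold change 0.88, SE 0.17, adjusted p = 0.0109, edgeR). It was at most 2.64 CPM in B cells of any sample. Each of these calls was kept without old sample 2 and lost without any other sample, S100a6 with log2 fold changes of 0.75 to 1.00 and Gzmb with 0.42, without old sample 1, to 1.08.

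Plac8, a small cysteine-rich protein, stood at 42.9 and 72.8 CPM in young and 286 and 112 CPM in old NK cells (log2 fold change 1.98, SE 0.37, adjusted p = 0.00892, edgeR). It was far more abundant in monocytes, at 4171 to 8159 CPM, and in B cells, at 1021 to 2564 CPM. Its call was kept without old sample 2 and lost without any other sample, with a log2 fold change of 0.87 without old sample 1. Without NK cells that held a platelet UMI its log2 fold change was 1.40 and the call was lost (adjusted p = 0.462). Ifi27l2a, an interferon-inducible gene, stood at 49.0, 51.5 and 48.0 CPM in both young samples and old sample 2 and at 314 CPM in old sample 1. Its call (log2 fold change 2.16, SE 0.42, adjusted p = 0.0109, edgeR) rested on that sample, and without it the log2 fold change was -0.14.

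**Figure D3:**
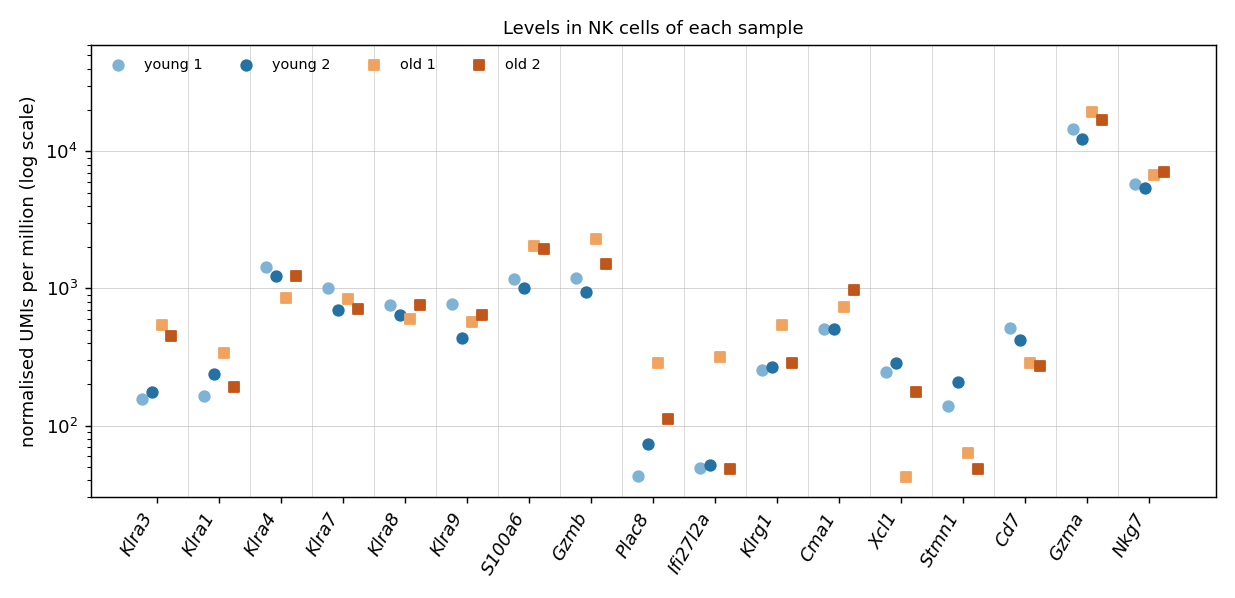
Normalised CPM (y axis, log scale) of 17 genes in the NK cells of each sample, circles for young and squares for old samples. Klra3 lies at 156 and 176 in young and 538 and 448 in old samples, while Klra4, Klra7, Klra8, Klra9 and Klra1 overlap between ages.

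Genes of mature NK cells were mostly higher in the old samples. Of 16 tested, 15 had a positive and 1 a negative log2 fold change, the median was 0.41, and 2 were called (S100a6 and Gzmb). Both old samples exceeded both young ones for 10 of the 16, against 17.0% of all genes. The list was chosen with earlier results of these data known. Cma1, a chymase of NK cells and mast cells, stood at 506 and 509 CPM in young and 734 and 976 CPM in old cells (log2 fold change 0.70, SE 0.18, adjusted p = 0.109, edgeR). Klrg1, an inhibitory receptor for cadherins, stood at 254 and 267 CPM in young and 545 and 288 CPM in old cells (0.80, SE 0.23, adjusted p = 0.223, edgeR), so that old sample 2 was close to the young ones. Lgals1, a galectin, stood at 3711 and 3980.4 CPM in young and 5016 and 5649.9 CPM in old cells, and did not pass the test. Zeb2 (417 and 391 in young, 440 and 368 CPM in old cells) and S1pr5 (242 and 243 against 335 and 128 CPM) overlapped between ages. Ly6c2 was the 1 negative gene. Of the genes tested, S100a6, Lgals1, S100a4, Emp3, Anxa2 and Vim are also on the cytoskeleton and adhesion list. Gzmb and Serpinb9 are also on the cytotoxic granule list. In T cells without NK receptor UMIs the log2 fold changes of S100a6 and Lgals1 with age were 2.81 and 1.76.

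Genes of immature NK cells had a median log2 fold change of -0.17, with 2 positive and 6 negative of 8 tested and none called. Xcl1, a chemokine that attracts cross-presenting dendritic cells, stood at 245 and 285 CPM in young and 41.9 and 176 CPM in old cells, without overlap. Its log2 fold change was -1.65 (SE 0.37), and its adjusted p of 0.051 from edgeR lay just past the threshold. It was called lower in 4 of 13 alternatives, among them those with DESeq2's size factors and with haemoglobin and platelet genes left out. Cd7 stood at 518 and 421 CPM in young and 286 and 272 CPM in old cells, and Ctla2a ran the other way, at 392 and 285 against 517 and 528 CPM. Neither passed the test.

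The summed CPM of the immature list divided by that of the mature list was 0.161 and 0.154 in young and 0.0906 and 0.106 in old samples. Abundant genes weigh most in such a sum. Lgals1 alone made up 30.1% of the mature sum in young sample 1 and 30.8% in old sample 1, and was its largest part in every sample. The mature sum also holds S100a6 and Gzmb, and the immature sum Xcl1 and Cd7, all described above. Whether the ratio differed between ages without these genes was not tested, so it does not show a shift of whole lists. The transcripts Cd27 and Itgam did not divide the ages. A UMI of Cd27 was held by 20.7% and 28.9% of young and 5.08% and 38.5% of old NK cells, and by 17.3% to 22.3% of B cells, so the shares with Cd27 are counts of cells with a transcript and not of cells at a stage. Itgam was held by 16.4% to 39.0% of NK cells and 0.808% to 4.24% of B cells. Cells with Cd27 but no Itgam UMI were 18.6% and 23.5% in young samples, 3.39% in old sample 1 and 30.8% in old sample 2. Cells with Itgam alone were 14.3% and 18.1% in young samples and 37.3% and 11.5% in old ones, so that the old samples lay on either side of the young ones for both markers. Neither transcript was seen in 13 of the 26 cells of old sample 2 or in 53.0% to 65.0% of the cells of the other samples.

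The cytotoxic granule list was also mostly higher in old NK cells. Of 15 genes tested, 12 were positive and 3 negative, the median log2 fold change was 0.40, and Gzmb was the 1 call. Both old samples exceeded both young ones for 9 of the 15, against 17.0% of all genes. Gzma stood at 14578 and 12278 CPM in young and 19408 and 16934 CPM in old cells (log2 fold change 0.44, SE 0.20, adjusted p = 0.742, edgeR). Ctsc, the protease that activates granzymes, stood at 172 and 146 against 279 and 272 CPM, and the granule proteoglycan Srgn at 444 and 437 against 622 and 512 CPM. Nkg7 stood at 5819.6 and 5420.4 in young and 6749 and 7042 CPM in old cells. Prf1, which encodes perforin, overlapped between ages at 104, 75.8, 168 and 32.0 CPM, and Fasl, a death ligand, was lower in both old samples at 153 and 121 against 105 and 96.0 CPM. Neither these nor Gzma, Ctsc, Srgn and Nkg7 passed the test.

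Among chemokines and cytokines, 3 of 8 tested were positive and none was called. Ccl5, a chemoattractant of T cells and monocytes, stood at 30909 and 30643 CPM in young and 51139 and 36140.1 CPM in old cells. Ccl4 stood at 665 and 667 in young and 531 and 320.1 CPM in old cells. Ifng, the interferon of NK cells, overlapped at 73.5, 36.4, 119 and 64.0 CPM. None of these 3 passed the test.

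Activating and inhibitory receptors outside the Ly49 family showed no common direction. The NKG2 and NKR-P1 list had 5 positive and 5 negative of 10 tested, none called, and a median of -0.06. Klrk1, the activating receptor NKG2D, stood at 1545 and 1579 CPM in young and 1229.6 and 1376 CPM in old cells, and Klrc1, the inhibitory NKG2A, at 444 and 318 against 293 and 288 CPM. Klrd1, the CD94 partner of NKG2A, overlapped at 1541, 1379, 1509 and 1601 CPM. The other activating and inhibitory receptors had 3 positive of 7. Among the receptors that chose the cells, Ncr1 overlapped between ages at 1281, 1025, 1159.7 and 1024 CPM.

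Of the adaptors and proximal signaling genes, 13 of 17 tested were positive and none was called, with a median of 0.13. Tyrobp, the DAP12 adaptor of activating Ly49 receptors, stood at 3956 and 3835 against 4772 and 4129 CPM, Fcer1g at 3313 and 2986 against 3738 and 3489 CPM, and Hcst, the DAP10 adaptor of NKG2D, at 781 and 882 against 887 and 1296 CPM. Both old samples were above both young ones for each of these 3 adaptors, with log2 fold changes of 0.20, 0.20 and 0.33, and none passed the test. Fyn, a kinase, had a log2 fold change of -0.69 with overlapping ages.

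Cytokine receptors, with 6 positive of 13, trafficking genes, with 10 of 16, and transcription factors, with 7 of 17, had no call and medians of -0.02, 0.11 and -0.07. Il2rb, the interleukin-15 receptor chain on which NK cells depend, stood at 484, 537, 538 and 368 CPM. Eomes, a T-box factor of NK cells, stood at 285, 269.8, 112 and 304 CPM and its relative Tbx21 at 135, 185, 258 and 48.0 CPM. Both therefore differed more between the old samples than between the young ones. Runx3 stood at 196 and 188 CPM in young and 112 and 96.0 CPM in old cells, and Irf8 at 637 and 743 against 1006 and 864 CPM, both without overlap and without passing the test.

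Proliferation genes had the lowest median of any list, -0.64, with 1 positive and 6 negative of 7 tested and none called. Stmn1, a tubulin-binding protein of cycling cells, stood at 138 and 209 CPM in young and 62.9 and 48.0 CPM in old cells (log2 fold change -1.57, SE 0.41, adjusted p = 0.128, edgeR). Tuba1b, a tubulin, stood at 276 and 264 against 119 and 144 CPM, and Hmgb2, a chromatin protein, at 598 and 594 against 398 and 352 CPM. Both old samples were below both young ones for 5 of the 7, against 17.8% of all genes. Mki67 and Top2a, which mark dividing cells most directly, had 2 and 4 UMIs (Mki67) and 7 and 13 UMIs (Top2a) in the young samples, at 6.13 to 39.4 CPM, and 0 in old ones. At the depth of the old samples a count of 0 allows up to 21.0 and 48.0 CPM. No difference was detectable for Mki67, whose young levels lay below both limits. The young levels of Top2a, 21.5 and 39.4 CPM, lay above the limit of old sample 1 and below that of old sample 2.

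Immediate early and heat shock genes had a median of -0.27, with 3 positive and 13 negative of 16. Jund stood at 619 and 488 CPM in young and 231 and 464 CPM in old cells, and the chaperone Hsp90aa1 at 242 and 267 against 175 and 112 CPM. MHC class I and antigen processing genes ran the other way, with 19 positive and 1 negative of 20 and a median of 0.17. B2m, the shared light chain of MHC class I, stood at 3972 and 3386 in young and 5470.2 and 5602 CPM in old cells (log2 fold change 0.59, SE 0.19, adjusted p = 0.335, edgeR), while H2-K1 overlapped. No gene of either list was called.

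Cytoskeleton and adhesion genes had 22 positive of 26 and a median of 0.14, and S100a6 was the 1 call. Both old samples exceeded both young ones for 16 of the 26, against 17.0% of all genes. Crip1, a LIM domain protein, stood at 1655 and 1807 against 2850.4 and 2385 CPM. Interferon-stimulated genes had 9 positive of 13 and a median of 0.08, with Ifi27l2a as the call described above. Ribosomal protein genes, 55 of 81 positive, and nuclear genes of oxidative phosphorylation, 34 of 69 positive, had medians of 0.04 and -0.005 and no call, mitochondrially encoded genes had 3 of 10 positive, and survival and senescence genes 5 of 7. The medians of the mature, granule, MHC class I, immediate early and proliferation lists kept their sign in all 10 alternatives in which the medians were computed.

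Outside the fixed lists, the genes next to the threshold with no overlap between ages included Bcap31, an endoplasmic reticulum chaperone, at 178 and 124 CPM in young and 279 and 304 CPM in old cells, and Chd1, a chromatin remodeller, at 42.9 and 60.6 against 139.7 and 112 CPM. On the lower side were Gmfg, an actin regulator, at 386 and 437 against 238 and 192 CPM, and Ppp1r11, a phosphatase inhibitor, at 150.2 and 173 against 41.9 and 96.0 CPM. None of the 4 passed the test.

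**Figure D4:**
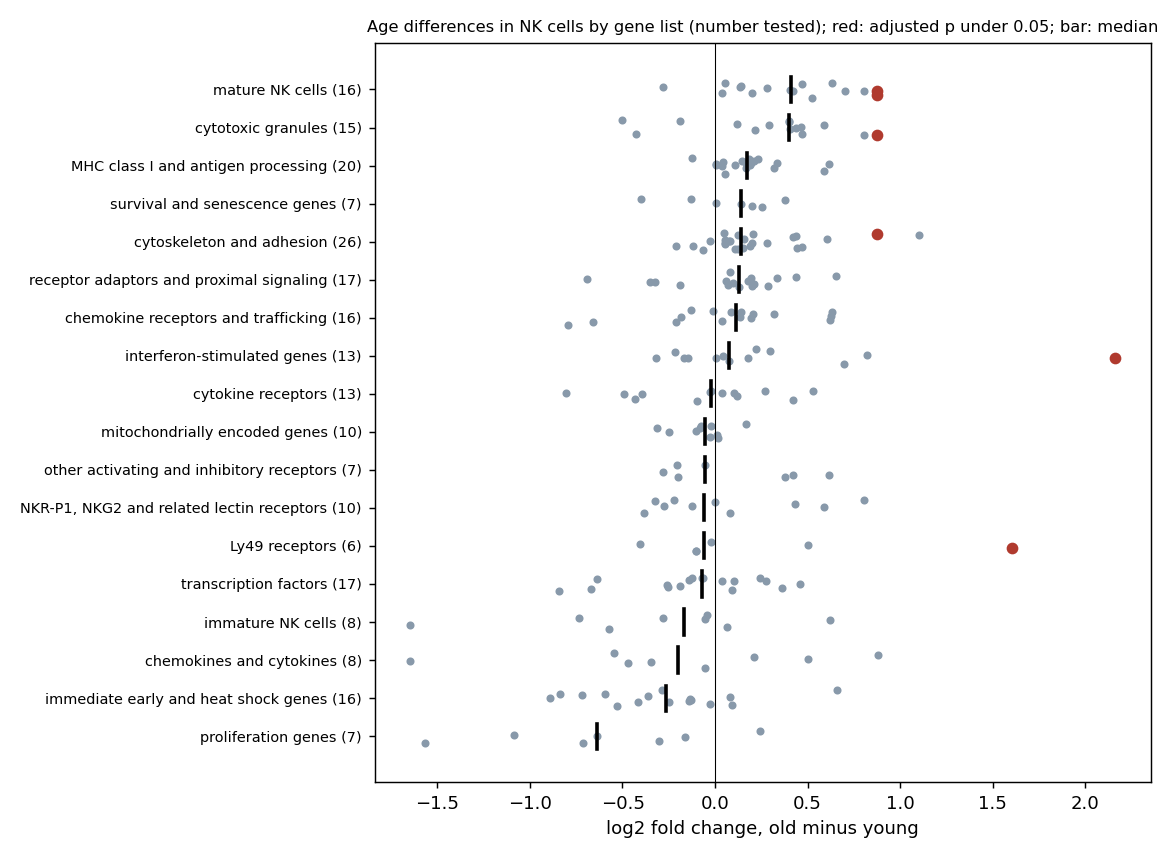
Log2 fold change, old minus young samples (x axis), of each tested gene of 18 lists in NK cells, with the list's median as a bar and the genes of adjusted p under 0.05 in red. The mature and granule lists have the highest medians, 0.41 and 0.40, and the proliferation list the lowest, -0.64.

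The age difference in NK cells was set against that in 3 T cell groups of the same libraries, with the difference tested in one edgeR model with the sample as a block. The groups were T cells without NK receptor UMIs (2274 cells), T cells with 2 or more (NKT-like, 250 cells), and T cells with Cd8a or Cd8b1 and 2 or more Ccl5 UMIs (Ccl5 Cd8 T cells, 348 cells, all of them also among the T cells without receptor UMIs). Against all T cells without receptor UMIs the age effect was higher in NK cells for 31 of 2145 genes (1.45%) and lower for 24 (1.12%). The make-up of these T cells differed between ages, since Ccl5 Cd8 T cells were 119 of 1025 and 96 of 814 of them in young samples and 90 of 261 and 43 of 174 in old ones. Its part in the age effects of T cells was not tested.

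S100a6 stood at 209.7 and 402 CPM in young and 1943 and 2316 CPM in old T cells, a log2 fold change of 2.81 (SE 0.27), and the effect in NK cells was smaller by 1.92 (SE 0.22, adjusted p = 2.2e-06, edgeR). S100a11 overlapped between ages in NK cells at 607, 685, 559 and 720.2 CPM and stood at 281 and 381 against 963 and 1133 CPM in T cells (difference -1.66, SE 0.18, adjusted p = 1.8e-06, edgeR). Ctla2a, a cysteine protease inhibitor, had a difference of -1.96 and Hmgb2 one of -1.55, Hmgb2 being lower in old NK cells without passing the test and higher in old T cells. In young samples S100a6, S100a11 and Lgals1 (3711 and 3980.4 CPM in NK cells, 500.3 and 682 CPM in T cells) were each more abundant in NK cells. Without young sample 1, each of the differences of S100a6, S100a11, Ctla2a and Hmgb2 kept its sign and lost its call, and that of S100a6 also lost it without old sample 2.

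Among genes with a higher effect in NK cells was Npc2, a lysosomal cholesterol carrier. It stood at 309.5 and 261 CPM in young and 454 and 288 CPM in old NK cells and at 661 and 601 against 344 and 421 CPM in T cells (difference 1.29, SE 0.25, adjusted p = 0.00198, edgeR). Without old sample 1 the difference was 0.61, and the call was also lost without either young sample. Genes for ribosomal proteins such as Rpl35a (0.81, SE 0.19, adjusted p = 0.0148, edgeR) were also in this group, and the call of Rpl35a was lost without any 1 of the 4 samples. DESeq2 called 0 higher and 8 lower, while edgeR had 157 higher at an unadjusted p under 0.05.

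Against NKT-like cells, 6 of 2289 genes had a higher age effect in NK cells (0.262%) and 1 a lower one (0.0437%). Of the 6, 4 were haemoglobin genes, and without cells of 200 or more haemoglobin UMIs their differences were -0.05 to -0.02. The other two were Ifi27l2a, which rested on old sample 1 in NK cells, and Gzmb, which stood at 390.1 and 409.6 CPM in young and 222 and 334 CPM in old NKT-like cells (difference 1.48, SE 0.30, adjusted p = 0.036, edgeR). Without old sample 1 the Gzmb difference was 0.74 and not called. Ly6c2, a surface marker of mature NK and memory T cells, had a lower effect in NK cells (difference -1.21, SE 0.24, adjusted p = 0.036, edgeR). This call was lost without young sample 2 (-0.84) or old sample 1 (-1.39), and at 1000 UMIs per cell (-0.74). Xcl1, at 299 and 279 CPM in young and 111 and 69.7 CPM in old NKT-like cells, had a log2 fold change there of -1.59, near the -1.65 of NK cells.

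Against Ccl5 Cd8 T cells, 6 of 2193 genes had a higher effect in NK cells (0.274%), again 4 of them haemoglobin genes, and 8 a lower one (0.365%). Without cells of 200 or more haemoglobin UMIs the 4 haemoglobin differences were -0.12 to 0.07, and none was called. Without old sample 1 none of the 14 genes was called. Eomes stood at 54.3 and 64.2 CPM in young and 157 and 189.5 CPM in old Cd8 cells, whereas in NK cells it did not pass the test, and the difference was -2.16 (SE 0.39, adjusted p = 2e-05, edgeR). Without old sample 1 it was -1.54. Klrk1 stood at 109 and 135 against 252 and 288 CPM in Cd8 cells, and the difference was -1.39 (SE 0.28, adjusted p = 0.000183, edgeR). It was -1.42 without old sample 1, and -0.81 and not called at 1000 UMIs per cell. Id2, Ms4a4b, S100a6, S100a11, Hmgb2 and Sp100 were the other 6 genes with lower effects in NK cells. Plac8 had a higher effect in NK cells (1.93, SE 0.37), with 313, 234, 309.9 and 243 CPM in Cd8 cells, and this call was also lost without young sample 1.

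**Figure D5:**
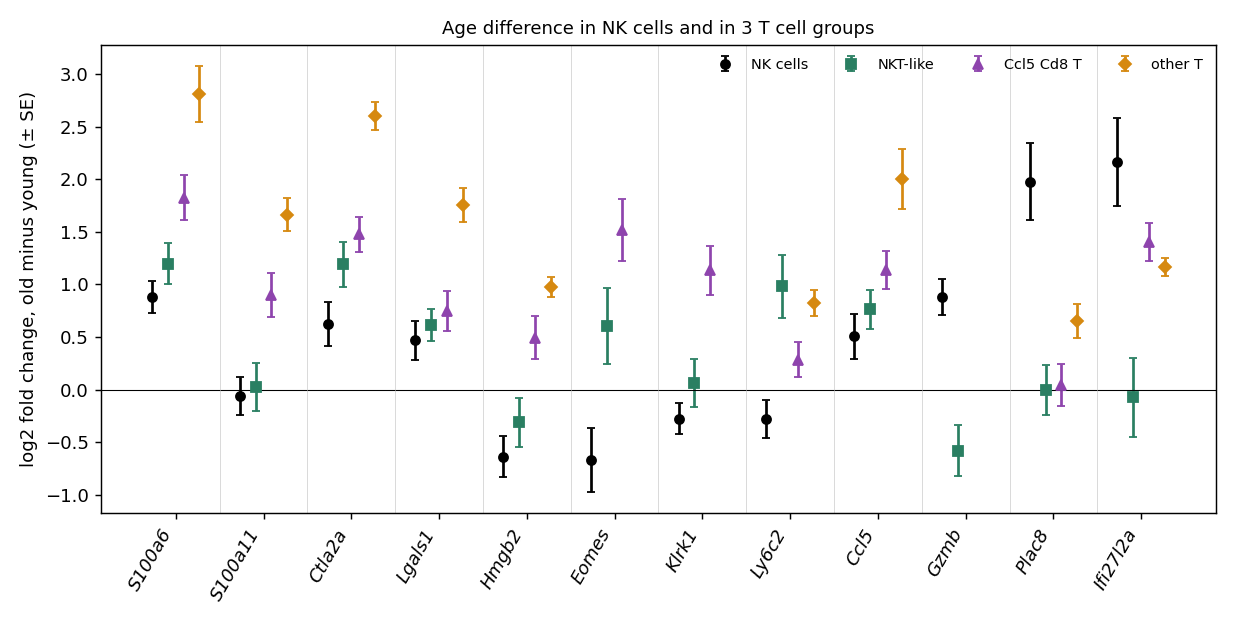
Log2 fold change with age, old minus young (y axis, bars ± SE), of 12 genes in NK cells and in 3 T cell groups, a missing symbol meaning that the gene was too low to fit. S100a6 lies at 0.88 in NK cells and at 2.81 in T cells without NK receptor UMIs, and Eomes at -0.67 in NK cells and 1.51 in Ccl5 Cd8 T cells.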

How the data were processed

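Single-cell RNA was measured in 4 libraries of mouse blood, 2 per age, each a pool of 2 mice. The deposited table holds UMI counts per gene and cell, made by the authors with Cell Ranger on mm10 and merged within each age, and its cells had passed their Seurat 2.3.0 filter of 500 to 4000 genes and under 10% mitochondrial UMIs. The sources used here do not give whether merging equalised depth. Each cell's sample was read from the deposited metadata.

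NK cells were taken by the rule given above, and the UMIs of each sample's NK cells were summed. Genes with a UMI in at least 10% of the NK cells of each age (2601 of 14697) were tested with edgeR 4.0.16 (R 4.3.3), quasi-likelihood test, TMM scaling and Benjamini-Hochberg adjustment at 0.05, and with DESeq2 1.42.0 as an alternative. CPM are UMIs per 1000000 of the TMM-scaled library of tested genes. A log2 fold change is old minus young, and its SE is its size over the root of F. Differences between cell types came from an edgeR model with the sample as a block. Doublets were treated only by the limits on other lineages' genes. Samples of 1 age were not duplicates (chi-square per degree of freedom 5.25 and 4.70). Shares have exact (Clopper-Pearson) intervals. The scripts were tested on simulated data.

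NK cells had medians of 2065 to 2625.5 UMIs, and 79799 to 366270 UMIs per sample. The members and gene lists were chosen with earlier results of these data known, and no adjusted p was computed over a list alone. The text names list genes, all called genes, the 5 genes per direction of lowest p among those not called whose ages did not overlap, and the 5 per direction of lowest p in each comparison with T cells. Some genes that these rules select are not reported here. List genes absent from the table were not analysed here.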

Additional observations from a re-analysis of the deposited data

Results flagged for a closer look

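The results below stood out because the age effect differed between NK cells and another cell group of the same libraries by the edgeR test of the difference itself. Each value is the log2 age effect in NK cells minus that in the other group, for the 5 called genes of lowest p in each direction, or all where fewer were called, apart from genes not reported here.

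Against T cells without NK receptor UMIs, the effect in NK cells was lower for S100a11 (-1.66), S100a6 (-1.92), Ctla2a (-1.96), Hmgb2 (-1.55) and S100a10 (-1.16). It was higher for the lysosomal cholesterol carrier Npc2 (1.29), Gm10073 (1.16) and Rpl35a (0.81). Ribosomal protein genes have many near-identical copies, so their counts are uncertain.

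Against NKT-like cells, the effect was higher for Hbb-bt (1.84), Hba-a1 (1.93), Hba-a2 (1.82), Hbb-bs (1.73) and Ifi27l2a (2.097) and lower for Ly6c2 (-1.21), whose call was lost without young sample 2 or old sample 1. Without cells of 200 or more haemoglobin UMIs the haemoglobin differences were -0.05 to -0.02. Against Ccl5 Cd8 T cells it was higher for Hba-a2 (1.78), Hba-a1 (1.73), Hbb-bt (1.46), Hbb-bs (1.77) and Plac8 (1.93) and lower for Eomes (-2.16), Klrk1 (-1.39), S100a6 (-0.98), Ms4a4b (-0.98) and Hmgb2 (-1.13). Without old sample 1 none of these was called, and without cells of 200 or more haemoglobin UMIs the values were 0.069 for Hba-a2, 0.047 for Hba-a1, -0.120 for Hbb-bt and -0.0322 for Hbb-bs, none called. For S100a6 against Ccl5 Cd8 T cells, the value was -0.30 without young sample 1. Haemoglobin genes took 15.5% of NK UMIs in old sample 2, where 3 of 26 NK cells held 200 or more haemoglobin UMIs.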

How the results depend on the processing

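The lower NK share in old samples kept its direction in every alternative run. A share among cells with under 10 haemoglobin UMIs could not be had, since 2 samples held no such cell. The 5 genes called higher and 0 lower with age became, higher and lower, 2 and 0 with DESeq2, 9 and 1 with its size factors, 1 and 0 with library size alone (which moved the median of all genes to -0.15), 7 and 1 with the filter applied to either age, 9 and 3 with edgeR's own filter, 0 and 0 without a filter (121 and 259 at an unadjusted p under 0.05 in edgeR, median -0.21), 0 and 0 of 1054 genes at 1000 UMIs per cell (35 and 23 at an unadjusted p under 0.05 in edgeR), 1 and 0 with 4 or more receptor UMIs, 3 and 0 without any other lineage UMI, and 7 and 2 without cells holding a platelet UMI. With alternatives added after seeing the data they were 4 and 0 without haemoglobin-rich cells and 5 and 1 without haemoglobin and platelet genes. Haemoglobin genes were among those called with DESeq2's size factors, without cells holding a platelet UMI and without old sample 1. The platelet genes Gng11, Pf4 and Ppbp were among those called with the filter applied to either age and with edgeR's own filter. Leaving out 1 sample gave 0 (without young sample 2) to 8 higher (without old sample 1) and 0 (without either young sample) to 7 lower (without old sample 2), and Ifi27l2a ranged from -0.142 (without old sample 1) to 2.63 (without old sample 2).

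With the replicate number as a block there were 20 higher and 1 lower, haemoglobin genes among those called. The sources used here do not say whether same-numbered samples were handled together. Deviations of same-numbered samples correlated at 0.034, but counting noise from few cells lowers such a value, so it cannot decide the question. No pairing was assumed.

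Against T cells without receptor UMIs, the 31 higher and 24 lower became 8 higher with edgeR's filter, 0 and 8 with DESeq2, 2 and 12 without the sample block and 84 higher without haemoglobin-rich cells. Leaving out 1 sample gave 0 (without either young sample) to 8 higher (without old sample 1) and 0 (without young sample 1) to 16 lower (without old sample 1). Against NKT-like cells, the 6 higher and 1 lower became 2 lower with edgeR's filter, 0 lower with DESeq2, 0 and 0 at 1000 UMIs (27 and 25 at an unadjusted p under 0.05 in edgeR), 0 and 0 without the sample block and 6 lower without haemoglobin-rich cells, and 5 (without old sample 1) to 16 higher and 0 (without young sample 2 or old sample 1) to 8 lower without 1 sample, both highest without old sample 2. Against Ccl5 Cd8 T cells, the 6 higher and 8 lower became 14 lower with edgeR's filter, 3 and 0 with DESeq2, 1 and 4 without the sample block and 1 higher without haemoglobin-rich cells, and 0 to 77 higher and 0 to 21 lower without 1 sample, both lowest without old sample 1 and highest without young sample 2. Without haemoglobin-rich cells, the haemoglobin differences reversed to -0.0465 (Hbb-bt), -0.0231 (Hba-a1), -0.0417 (Hba-a2) and -0.0367 (Hbb-bs) against NKT-like cells and to -0.120 (Hbb-bt) and -0.0322 (Hbb-bs) against Ccl5 Cd8 T cells. The cause of the other changes in counts was not tested.

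Depth limits the genes near the floor. With 26 NK cells in old sample 2, a count of 0 allows up to 48.0 CPM there.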
